A study of Rattus norvegicus with 164 samples.

Results

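The pairs of adjacent rat genes examined were Prss23 with Me3, Golm2 with Ctdspl2, and Fuz with Prmt1. They are 6 of the 38354 genes in the deposited table. The pairs were chosen because their genes start under 200 kb apart and because, in these same libraries, their levels moved together once broad differences between libraries were taken out. Values within a pair are therefore given as a description, with no test. The data are RNA sequencing of polyadenylated RNA from the prelimbic cortex, a medial prefrontal region, of outbred laboratory rats. A decimal number identifies the rat in 68 libraries (the decimal series), and a code starting with E21DCD in the others. Of these, 11 had another label before a genotype mismatch was fixed, and they are called the reassigned libraries. The remaining 51 make up the E21DCD series. Each library has an identifier of its own, so the libraries were treated as separate rats. The labels give no treatment, sex or age for the animals, name no genotype, and describe all 3 groups as outbred rats and the same tissue.

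Summed estimated counts, in units of 1000000, were 17.1 to 54.5 in the decimal series, 20.4 to 28.0 in the reassigned libraries and 15.1 to 55.95 in the E21DCD series. Some libraries stood apart. In 11 libraries, all decimal, the mean of 10 striatal projection neuron genes (8.65 to 9.19) exceeded that of 10 glutamatergic genes (1.08 to 3.98), although the label is cortex. These are called striatal-like, and in the 112 libraries that did not stand apart the striatal mean was 4.00 to 5.90 and the glutamatergic mean 6.01 to 6.69. In 7 more, 1 decimal and 6 E21DCD, the GABA-synthesis gene Gad2 was at 2.37 to 4.27, against 5.14 to 6.52 in those 112. These are called low-Gad2. Levels throughout are log2 of counts per 1000000 plus 1.

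The genes have different roles. Prss23 encodes a secreted serine protease, and Me3 the mitochondrial malic enzyme that turns malate into pyruvate while making NADPH. Golm2 encodes a membrane protein of the Golgi related to Golm1, and Ctdspl2 a phosphatase of the family that acts on the tail of RNA polymerase II. Fuz encodes a planar polarity effector needed to build cilia, and Prmt1 the main enzyme that places asymmetric dimethyl marks on arginines. Neighbouring genes can share regulatory DNA, chromatin domains and inherited variants.

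The pairs differ in layout (GRCr8). Prss23 (chr1:152815301-152835005, minus strand) and Me3 (chr1:152946595-153148026, plus strand) point away from each other, with starts 111590 bases apart. No gene of the table starts between them, but the long noncoding RNA LOC103691188 starts 56 bases inside Prss23 and runs on the plus strand over most of the interval. Golm2 (chr3:129280623-129349895) and Ctdspl2 (chr3:129365709-129424232) follow each other on the plus strand. Their starts are 85086 bases apart, Ctdspl2 starts 15814 bases after the end of Golm2, and no other gene starts between them. Fuz (chr1:104515782-104524591, plus strand) and Prmt1 (chr1:104595339-104605552, minus strand) face each other, with starts 89770 bases apart. Ap2a1, Tsks, the tRNA gene Trnap-agg45 and Cpt1c start between them.

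The promoters of both pairs for which both windows were at hand are shown, because their genes move together and their letters can be compared. The RefSeq windows (GRCr8) run from 250 bases before to 50 after an annotated start, and 5 of the 6 genes had one. Prss23 is named only. Capitals mark matches, on either strand, to the GC box GGGCGG, the CCAAT box CCAAT, the ETS core CCGGAAG and the YY1 core AAGATGGC. The TATA box TATAAA and the NRF1 core GCATGCGC were also searched.
Golm2 (chr3:129280488-129280787, plus strand): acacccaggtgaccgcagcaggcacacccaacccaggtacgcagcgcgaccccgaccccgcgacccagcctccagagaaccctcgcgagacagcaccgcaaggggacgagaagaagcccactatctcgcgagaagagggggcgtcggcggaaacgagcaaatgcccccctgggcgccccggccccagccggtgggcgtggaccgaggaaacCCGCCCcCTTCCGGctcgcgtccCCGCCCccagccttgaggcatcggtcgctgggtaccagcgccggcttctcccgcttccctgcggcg
Ctdspl2 (chr3:129368877-129369176, plus strand): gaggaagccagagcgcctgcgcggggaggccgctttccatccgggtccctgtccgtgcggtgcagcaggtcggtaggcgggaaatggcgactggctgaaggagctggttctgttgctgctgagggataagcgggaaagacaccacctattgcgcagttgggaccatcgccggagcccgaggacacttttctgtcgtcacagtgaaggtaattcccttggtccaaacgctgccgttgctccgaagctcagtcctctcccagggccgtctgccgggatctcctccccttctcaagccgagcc
Fuz (chr1:104515826-104516125, plus strand): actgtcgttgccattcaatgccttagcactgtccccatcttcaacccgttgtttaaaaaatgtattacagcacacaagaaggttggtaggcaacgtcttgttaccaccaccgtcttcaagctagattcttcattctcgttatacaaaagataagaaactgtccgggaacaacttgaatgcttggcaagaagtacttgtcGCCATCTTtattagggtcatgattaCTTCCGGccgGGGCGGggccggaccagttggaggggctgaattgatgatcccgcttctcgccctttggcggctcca
Prmt1 (chr1:104604496-104604795, minus strand): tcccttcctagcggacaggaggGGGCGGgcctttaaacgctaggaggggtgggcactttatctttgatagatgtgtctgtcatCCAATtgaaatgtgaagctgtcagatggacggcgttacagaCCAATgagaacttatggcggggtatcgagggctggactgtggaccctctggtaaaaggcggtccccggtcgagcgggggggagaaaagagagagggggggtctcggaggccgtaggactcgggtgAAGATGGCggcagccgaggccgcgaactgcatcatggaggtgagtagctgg
Golm2 had 2 GC boxes and 1 ETS core, and Ctdspl2, its neighbour, had none of the motifs. Fuz had a GC box, an ETS core and a YY1 core, and Prmt1 a GC box, 2 CCAAT boxes and a YY1 core. No match overlapped another. Of 33469 windows, 33.1% held a GC box, 37.5% a CCAAT box, 8.75% an ETS core and 3.17% a YY1 core. Bases G and C made up 71.7% of the Golm2 window, 62.7% of that of Ctdspl2, 58.7% of that of Prmt1, 51% of the unprinted window of Me3 and 48.3% of that of Fuz, around a median of 51.7% over all windows. The window of Ctdspl2 is placed at a start 3418 bases from the one in the deposited table. That of Prmt1 is at one 1007 bases away and that of Fuz at one 294 bases away. All of these deposited starts lie outside the printed windows. The letters are a description only.

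All 6 genes passed the filter on low levels (a mean of at least 1), as did 15150 genes in all. Prss23 had the lowest libraries among the striatal-like ones: its level was 2.71 at the lowest, 3.90 at the median and 4.72 at the highest in the decimal series, 3.42, 4.01 and 4.48 in the reassigned libraries, and 3.40, 3.99 and 4.61 in the E21DCD series. In the 11 striatal-like libraries it was 2.71 to 3.93. Me3 had 5.48, 6.34 and 7.09 in the decimal series, 6.07, 6.48 and 6.70 in the reassigned libraries, and 5.81, 6.28 and 6.96 in the E21DCD series. Here the striatal-like libraries, with a median of 6.40, lay in the middle of the range. The lowest estimated count of any member in any library was 142, for Prss23.

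Golm2 levels lay close together but for 1 library. Its level was 5.05, 6.94 and 7.33 (lowest, median, highest) in the decimal series, 6.78, 6.93 and 7.30 in the reassigned libraries and 6.37, 7.12 and 7.31 in the E21DCD series. Ctdspl2 had 3.72, 4.94 and 5.29 in the decimal series, 4.79, 5.07 and 5.26 in the reassigned libraries and 4.03, 5.12 and 5.37 in the E21DCD series. Decimal replicate 15, a low-Gad2 library, was lowest for both genes. The next lowest Ctdspl2 levels, 4.03 in E21DCD replicate 22 and 4.21 in decimal replicate 29, were in libraries that did not stand apart, and these were also the next lowest for Golm2, at 6.37 and 6.42.

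Fuz levels were drawn out upwards by low-Gad2 libraries. They were 3.76, 4.35 and 6.22 in the decimal series, 4.17, 4.35 and 4.65 in the reassigned libraries and 3.69, 4.32 and 5.55 in the E21DCD series. The highest, 6.22 and 5.55, were in decimal replicate 15 and E21DCD replicate 49, and without the 18 libraries that stood apart none exceeded 4.91. Prmt1 was also high in low-Gad2 libraries, at 6.22 to 6.58, and in striatal-like ones, at a median of 6.32. Its median was 5.88 in the libraries that did not stand apart. Its farthest levels lay downwards. It had 4.76, 5.97 and 6.48 in the decimal series, 5.47, 5.90 and 6.19 in the reassigned libraries and 4.82, 5.89 and 6.58 in the E21DCD series. Decimal replicates 1 and 51 and E21DCD replicate 7 lay at 4.76 to 4.84, apart from the next library at 5.17.

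**Figure D1:**
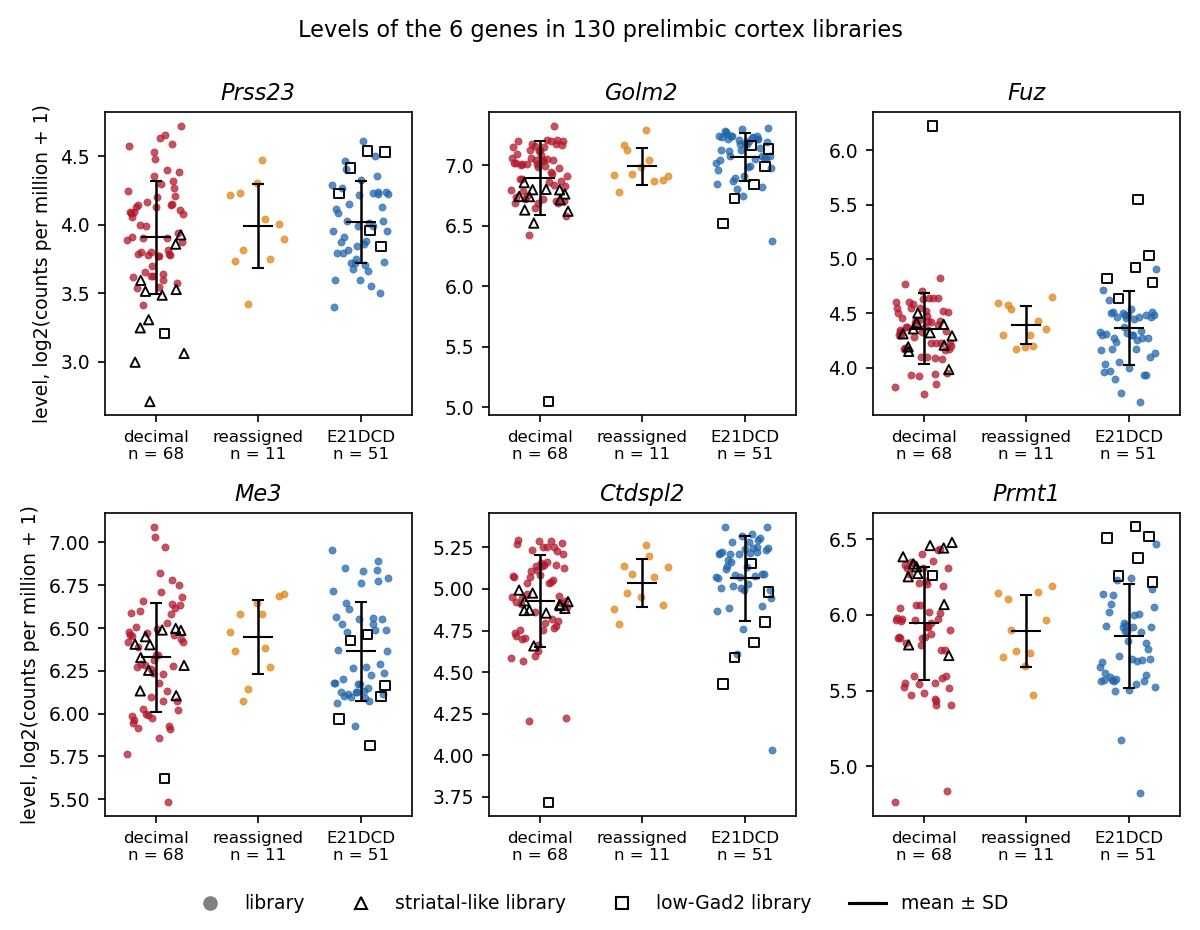
Level (log2 of counts per 1000000 plus 1) of each gene, 1 point per library, by identifier series, with mean and SD as black bars, open triangles for the 11 striatal-like and open squares for the 7 low-Gad2 libraries. The ranges of the 3 series overlap for every gene, and the farthest points of Golm2 (5.05), Ctdspl2 (3.72) and Fuz (6.22) are all decimal replicate 15.

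Between the series, Golm2 and Ctdspl2 were lower in the decimal libraries and the other 4 genes did not pass the test. This contrast did not choose the genes. Golm2 averaged 6.90 ± 0.30 in the decimal series and 7.07 ± 0.20 in the E21DCD series (SD, n = 68 and 51), a difference of -0.17 (SE 0.0487, limma, adjusted p = 0.00533). Ctdspl2 averaged 4.93 ± 0.28 in the decimal series and 5.06 ± 0.25 in the E21DCD series, a difference of -0.14 (SE 0.0495, limma, adjusted p = 0.0308). Over all genes tested 27.6% were called, so 2 of 6 is near that background. Neither was called without the 11 striatal-like libraries (Golm2 -0.14, limma adjusted p = 0.0696, and Ctdspl2 -0.13, limma adjusted p = 0.121), where the count of all genes called was 1328 in place of 4183. With the 7 low-Gad2 libraries also left out both were called again, at -0.13 (limma adjusted p = 0.00500) and -0.15 (limma adjusted p = 0.0138), among 5177 genes. Without only the low-Gad2 libraries 7071 genes were called, so the background of 27.6% depends on which libraries are kept.

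For the other 4 genes the limma differences, decimal minus E21DCD, were -0.11 for Prss23 (SE 0.0679, adjusted p = 0.219), -0.04 for Me3 (SE 0.0563, adjusted p = 0.677), -0.01 for Fuz (SE 0.0609, adjusted p = 0.942) and 0.08 for Prmt1 (SE 0.0663, adjusted p = 0.350). Without the striatal-like libraries that of Prss23 was -0.01, and 0.04 without all 18 that stood apart. Prmt1 was called without only the low-Gad2 libraries, at 0.15 (limma adjusted p = 0.0455). Marker genes also moved with the series: of 10 striatal genes 9 were higher and of 8 oligodendrocyte genes all 8, while all 10 glutamatergic genes were lower. The striatal and glutamatergic lists also defined the striatal-like libraries, which are all decimal and enter these differences. Striatal Drd2 was 7.25 to 7.90 in them, against 1.94 to 4.65 in the libraries that did not stand apart. List differences without them are not given here. Of 6 microglial genes 4 were higher, and all 6 meningeal fibroblast genes were lower, with a median difference of -0.48. Their part in the difference of Golm2 and Ctdspl2 was not tested, and in bulk tissue fewer cells of a type and less RNA per cell cannot be told apart. Between the reassigned libraries and the E21DCD series limma called no gene (0%, against 634 at an unadjusted p under 0.05). The 6 genes differed there by -0.08 (Golm2) to 0.08 (Me3), with limma adjusted p of 0.912 to 0.978.

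**Figure D2:**
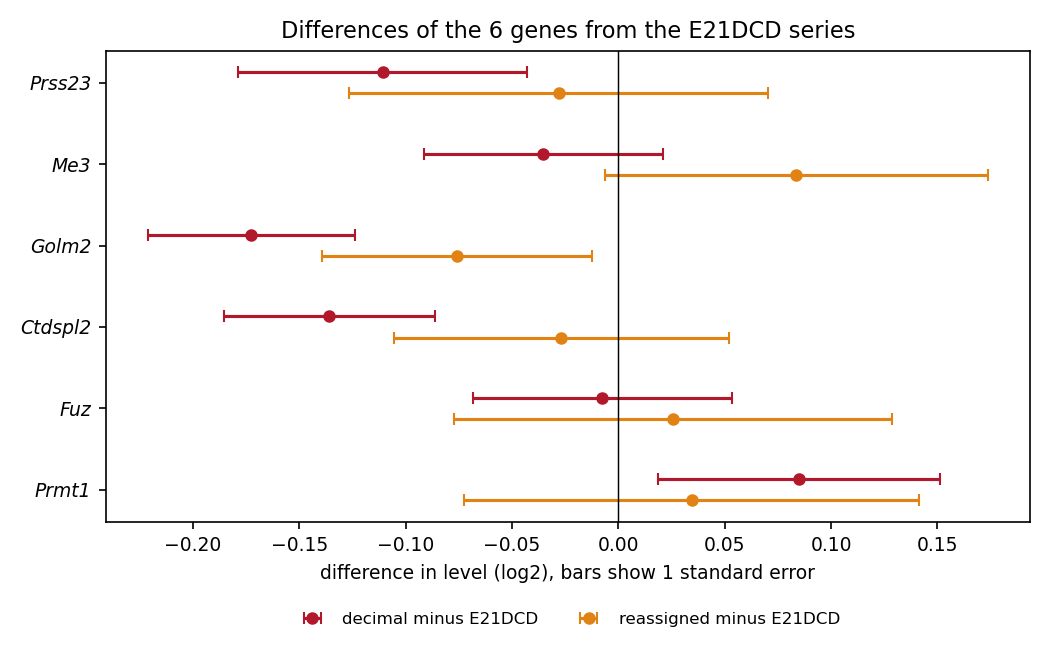
Difference in level (log2) of each gene from the E21DCD series, for the decimal series and the reassigned libraries, with bars of 1 standard error. Golm2 (-0.17) and Ctdspl2 (-0.14) in the decimal series are the 2 called, and the bars of the reassigned libraries span 0 for all genes but Golm2.

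Relatives of the members that entered the tests were counted in lists chosen by role, to be read beside the 27.6% of all genes called. Of 12 Golgi membrane and matrix genes, 2 were higher and 2 lower in the decimal series. Golm1, the nearest relative of Golm2, was among the higher, at 0.21 (limma adjusted p = 3.38e-05), with Golga5 at 0.11 (limma adjusted p = 0.0227), whereas Golph3 at -0.13 and Gorasp2 at -0.08 were lower (limma adjusted p = 0.00891 and 0.00218). Golim4 was at 0.07 and was not called. None of 9 phosphatases related to Ctdspl2 was called, with Ctdsp1 at 0.12, Ctdsp2 at 0.07 and Ctdspl at 0.08. Of 11 genes for malic enzymes and NADPH supply 1 was higher and 2 lower: Me1, the cytosolic counterpart of Me3, was at -0.22 (limma adjusted p = 0.0270), Mdh2 at -0.07 (limma adjusted p = 0.0352) and Me2 at 0.09 (limma adjusted p = 0.0317). Idh1 was at -0.10 and was not called (limma adjusted p = 0.0588).

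Of 8 serine proteases 3 were higher and 1 lower. Klk6, an oligodendrocyte protease, was at 0.80 (limma adjusted p = 0.000308) and Tmprss5 at 0.53 (limma adjusted p = 0.000268), while Htra1 was at 0.15 (limma adjusted p = 0.0239) and Prss35 at -0.24 (limma adjusted p = 0.0353). Prss12 at -0.12 and Prss36 at -0.06 were not called. None of 10 planar polarity and ciliary transport genes was called, with Intu, a partner of Fuz, at -0.02, Wdpcp, another, at -0.04 and Cplane1 at 0.01. Of 11 arginine methyltransferases and partners 1 was higher and 3 lower. Prmt5, which makes the symmetric mark, was at 0.16 (limma adjusted p = 6.26e-06) and its partner Wdr77 at -0.09 (limma adjusted p = 0.00612). Prmt2 was at -0.14 (limma adjusted p = 0.00406) and Btg2, an activity-induced binder of Prmt1, at -0.89 (limma adjusted p = 1.87e-05). Prmt3 at -0.04 and Carm1 at -0.07 were not called. Median differences over the 6 lists ran from -0.03 to 0.06, beside 0.01 over all genes, and no list gene was called in the reassigned libraries.

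Within the pairs the genes moved together, as they were chosen to do. After regression on the first 10 principal components of all tested genes (adjusted levels), Pearson's r was 0.84 for Prss23 with Me3 (Spearman 0.85), 0.80 for Golm2 with Ctdspl2 (Spearman 0.66) and 0.81 for Fuz with Prmt1 (Spearman 0.82), each over 130 libraries. Without the 2 libraries farthest out on the first gene, r was 0.84, 0.73 and 0.78. Between genes of different pairs r lay between -0.21 and 0.02 over 12 combinations. Among 45961 pairs of tested genes under 200 kb apart the median r was 0.04, 0.805% reached 0.5, and 34 reached the lowest value of these 3 pairs, on which they were chosen.

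The relation of each pair was seen in every series. The series make up the libraries on which the pairs were chosen, so this is no independent check. For Prss23 with Me3 r was 0.84 in the decimal series, 0.81 in the reassigned libraries and 0.86 in the E21DCD series. For Golm2 with Ctdspl2 it was 0.80, 0.64 and 0.81 in the same order, and for Fuz with Prmt1 it was 0.79, 0.93 and 0.84. The value of the reassigned libraries rests on 11 libraries, and for Golm2 with Ctdspl2 it was 0.40 without the 2 farthest.

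On unadjusted levels the pairs differed in what the other libraries did to them. Prss23 with Me3 had r = 0.56, and 0.67 without the 11 striatal-like libraries, in which Prss23 was low and Me3 was not. Golm2 with Ctdspl2 had r = 0.85, and 0.83 without decimal replicate 15. Fuz with Prmt1 had r = 0.72, and 0.79 without that library, in which Fuz reached 6.22 while Prmt1, at 6.26, stayed within the range of the others. The 10 components held from 32.9% (Me3) to 80.1% (Golm2) of a member's variance, against 78.2% for the median gene. Adjusted, Prss23 had a larger SD than 94.7% of genes, Me3 than 91.8% and Prmt1 than 91.6%, whereas Golm2, at 50.8%, was ordinary.

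**Figure D3:**
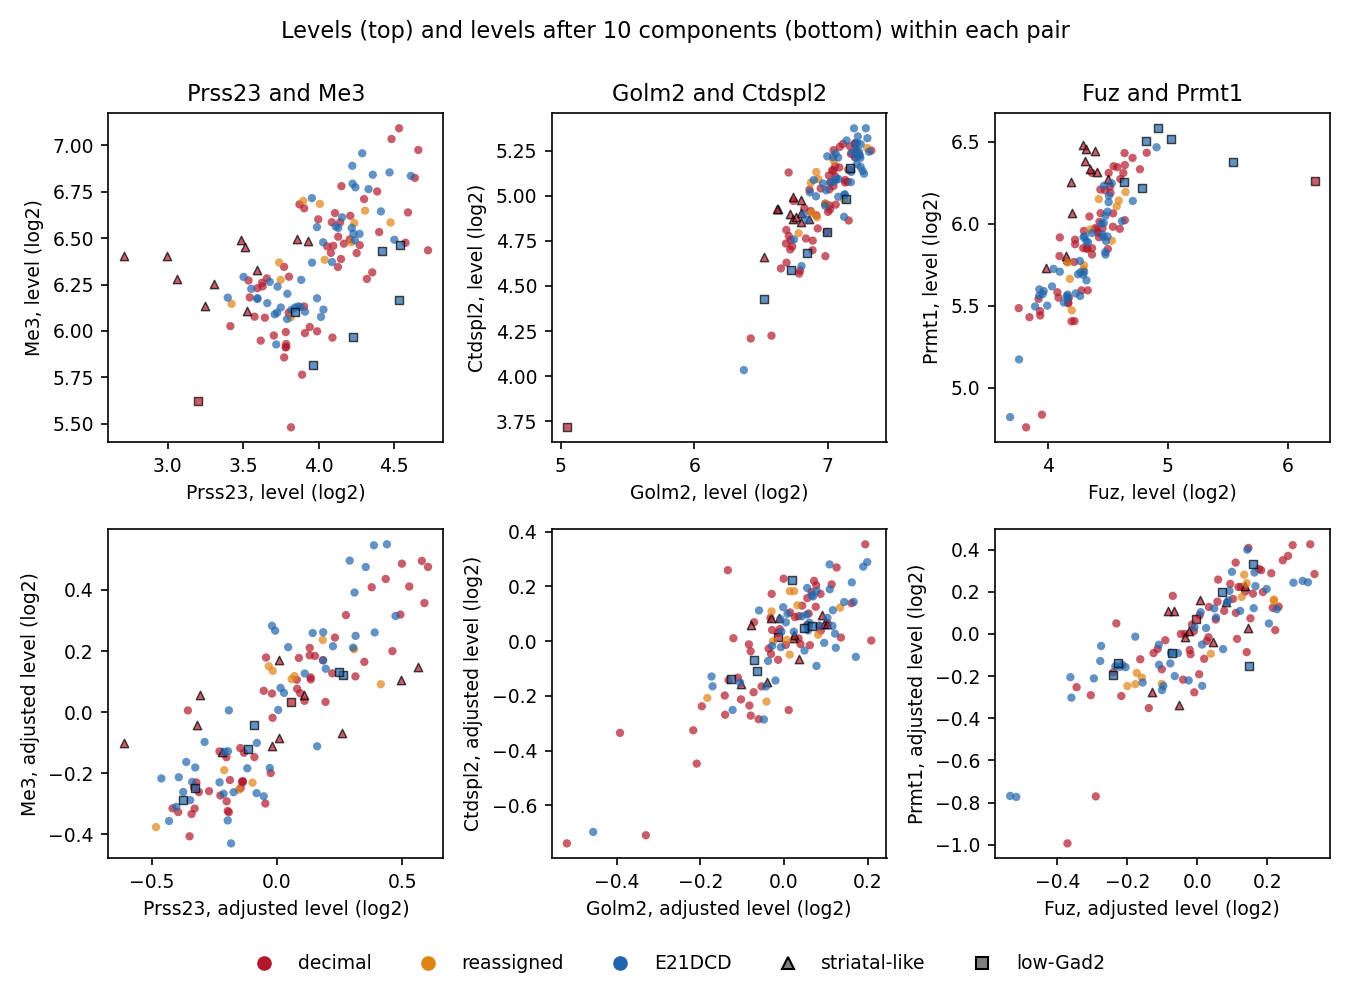
Each point is 1 library, with the first gene of a pair on the horizontal and the second on the vertical axis, as levels (log2, top) and adjusted levels (bottom), coloured by series, with triangles for striatal-like and squares for low-Gad2 libraries. The adjusted r is 0.84, 0.80 and 0.81 from left to right, and 3 or 4 libraries lie far down in the middle and right panels of the bottom row.

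Unadjusted levels formed no separate groups by the rule used here. A gene counted as having 2 separate levels where a mixture of 2 normal distributions lowered BIC by 10 or more against 1, the gap between the means was 1 log2 unit and 4 component SDs or more, and 5% or more of libraries lay in the smaller component. None of the 6 genes met this, beside 11% of all genes tested. Against 1 component, 2 components lowered BIC by 45.6 for Golm2, 27.1 for Fuz and 21.9 for Ctdspl2. In these genes they parted few libraries from the rest: for Golm2 the lower component was decimal replicate 15 alone, for Fuz the upper was 2 low-Gad2 libraries, and for Ctdspl2 the lower held 4 libraries. For Prss23, Me3 and Prmt1 BIC did not fall.

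On adjusted levels none of the 6 genes met the rule for separate levels either. Adjusted levels were also divided into 3 components. For Me3 the means were -0.22, 0.14 and 0.44 with a common SD of 0.0897, holding 62, 56 and 12 libraries, and BIC fell by 19.5 against 1 component, beside 23.2 for Ctdspl2 and 20.6 for Prmt1. Prss23, for which BIC did not fall, was divided at means of -0.25, 0.07 and 0.39 into 55, 49 and 26 libraries. Low Prss23 went with low Me3 in 52 libraries, middle with middle in 39 and high with high in 12. High Prss23 with middle Me3 made up 14 libraries, middle with low 10 and low with middle 3, and no library was low in one gene and high in the other. Within 1 group of Prss23 the relation was weaker, at r = 0.18 in the low, 0.46 in the middle and 0.24 in the high group, where the range is cut short.

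The lowest components of Golm2 and Ctdspl2 shared libraries, though neither gene met the rule. With 2 components the means were 0.43 log2 units apart for Golm2 and 0.68 for Ctdspl2. Of adjusted levels, 4 libraries were low for Golm2 (-0.52 to -0.33) and 3 for Ctdspl2 (-0.74 to -0.70). Decimal replicates 29 and 43 and E21DCD replicate 22 were low for both genes, and decimal replicate 46 was low for Golm2 with a middle Ctdspl2. None of these stood apart by striatal genes or Gad2. Of the other libraries, 92 were high for both and 20 middle for both, with 7 in each mixed class. For Golm2 BIC did not fall from 2 to 3 components (-6.41), so its middle and high groups only divide a range. Without the 4 libraries r was 0.68. The slope of adjusted levels, as the main axis of the cloud, was 1.74: Ctdspl2 moved more than Golm2, with adjusted SDs of 0.187 and 0.119. Unadjusted, the slope was 0.996, with SDs of 0.267 for Ctdspl2 and 0.268 for Golm2. It was 1.21 without decimal replicate 15.

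Prmt1 had a few low libraries too, without meeting the rule (means 0.85 log2 units apart with 2 components). For adjusted Fuz BIC did not fall with 2 or 3 components (-3.19 and -11.0 against 1), so its groups only divide a range. Adjusted Prmt1 was -0.99 to -0.77 in 4 libraries, decimal replicates 1 and 51 and E21DCD replicates 7 and 21, and -0.35 to 0.43 in the others. The lowest 2 values of Fuz, -0.53 and -0.52, were in E21DCD replicates 21 and 7, and decimal replicates 1 and 51 were in its middle group. Both genes were high in 60 libraries and middle in 36. High Fuz with middle Prmt1 made up 26, and middle Fuz with high Prmt1 made up 4. Without the 4 libraries r was 0.78. The slope of adjusted levels was 1.47, with adjusted SDs of 0.178 for Fuz and 0.244 for Prmt1. Unadjusted, it was 1.15.

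With the partner in the pair left aside, Prmt1l1 was, of the 15150 genes tested, most like Prmt1 and most like Fuz by absolute adjusted r. It starts at position 91765863 of chromosome 14 on the minus strand and is named for its likeness to Prmt1. Its r was -0.90 with Prmt1 and -0.81 with Fuz. A stretch of 54 bases found in the RefSeq windows of both genes is shown because it is where their letters could be compared: 53 bases were identical and the remaining one is G29A, from Prmt1 to Prmt1l1, counted from 1 at the 5′ end (RefSeq, GRCr8, the differing base in capitals).
Prmt1 (chr1:104604542-104604595, minus strand): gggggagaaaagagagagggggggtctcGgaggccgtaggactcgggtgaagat
Prmt1l1 (chr14:91765814-91765867, minus strand): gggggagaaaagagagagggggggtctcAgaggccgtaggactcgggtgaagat
The stretch covers bases 201 to 254 of the Prmt1 window, almost all of it before the annotated start there, and bases 247 to 300 of the Prmt1l1 window, almost all of it after the start. By the start in the deposited table Prmt1 spans chr1:104595339-104605552, and the stretch lies inside that span. Sequences outside the windows were not compared, and how alike the transcripts are was not examined.

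Prmt1l1 had 2 separate levels, with means of 1.64 in 71 libraries and 3.91 in 59 and no library between 2.68 and 3.29. The higher level was found in 27 of 68 decimal, 6 of 11 reassigned and 26 of 51 E21DCD libraries. Prmt1 was 4.76 to 6.26 (median 5.59) in the 59 libraries with the higher Prmt1l1 level and 5.81 to 6.58 (median 6.14) in the 71 with the lower. Fuz was 3.69 to 4.64 (median 4.17) and 4.10 to 6.22 (median 4.49) in the same libraries. The ranges of both genes overlap between these libraries. The 4 libraries lowest for adjusted Prmt1 had Prmt1l1 at 4.51 to 4.92, all at the higher level.

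Counts of both genes were also added, since reads could be shared out between them. Prmt1l1 took 0.619% to 51.6% of the summed counts, with a median of 5.00%. The sum was steadier than Prmt1: its adjusted SD was 0.0815, against 0.244 for Prmt1 alone. Fuz had adjusted r = 0.66 with the sum, which itself had r = 0.86 with Prmt1. Whether Prmt1 itself, Prmt1l1, or the division of reads between them varied cannot be told apart, and the level of either is uncertain for that reason. Within the libraries of 1 Prmt1l1 level, adjusted Fuz and Prmt1 had r = 0.63 (higher, n = 59) and 0.62 (lower, n = 71), and unadjusted 0.73 and 0.38. For Prmt1 with Prmt1l1 the adjusted r was -0.77 and -0.82 in the same libraries, and the unadjusted r -0.36 and -0.28. For Fuz with Prmt1l1 the adjusted r was -0.64 and -0.56, and the unadjusted r -0.08 and -0.49. The relations with Prmt1l1 within its levels were thus weaker before the adjustment.

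**Figure D4:**
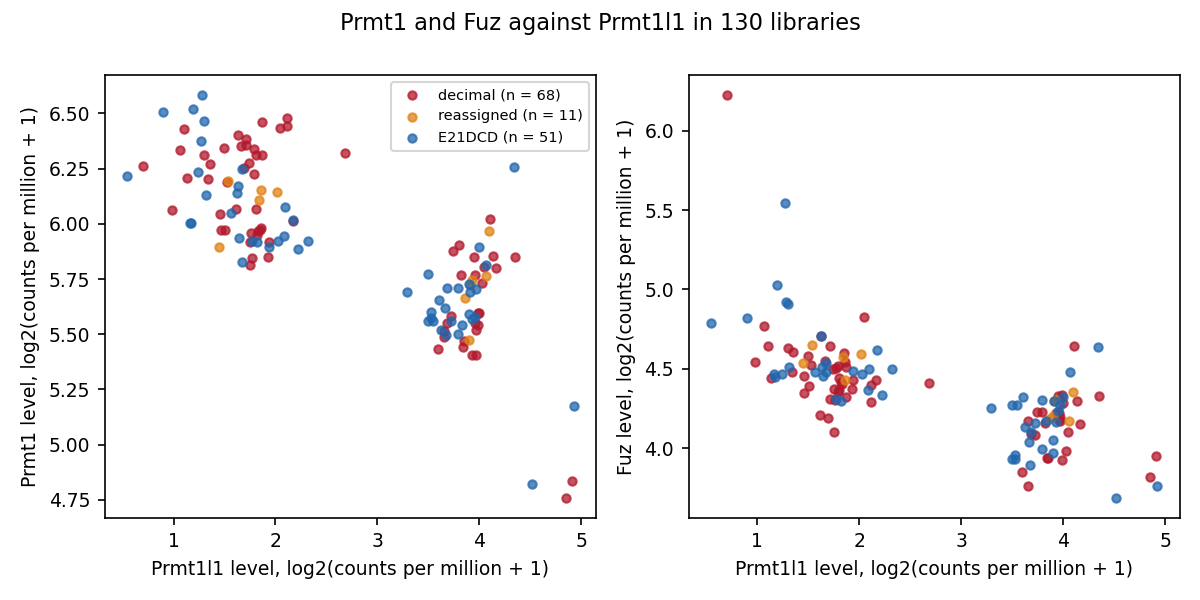
Level (log2 of counts per 1000000 plus 1) of Prmt1 (left) and Fuz (right) against that of Prmt1l1, 1 point per library, coloured by series. Prmt1l1 forms 2 clouds with means of 1.64 and 3.91, and the Prmt1 median is 5.59 in the cloud of higher Prmt1l1 and 6.14 in the other.

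Of the genes between Fuz and Prmt1, none shared their movement. Ap2a1, a subunit of the clathrin adaptor AP-2, had adjusted r = 0.06 with Fuz and -0.06 with Prmt1, and Cpt1c, a brain carnitine acyltransferase, -0.14 and -0.25. Tsks, a testis kinase substrate, was at a mean level of 0.34 and did not enter the tests, and Trnap-agg45 was above 0 in 2 libraries. The annotated spans of Fuz and Ap2a1 overlap at their far ends and the strand setting of the counting is not given in the sources used here, so reads there could belong to either. LOC103691188, which spans the interval of the first pair, had r = 0.01 with Prss23 and 0.10 with Me3.

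Within 500 kb of the starts, other genes went along to a lesser degree. Of 7 tested around Prss23 and Me3, 3 had an absolute r of at least 0.3 with a member: Ccdc81 with 0.56 for Prss23 and 0.50 for Me3, Eed, a core subunit of Polycomb repressive complex 2, with 0.36 and 0.37, and Tmem135 with 0.35 and 0.25. Of 16 around Golm2 and Ctdspl2 there was 1, Catsper2, a subunit of the sperm calcium channel, at -0.44 and -0.42. Of 51 around Fuz and Prmt1 there were 9, and 6 of these were negative.

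Those of the negative ones of the last pair that are named here were led by Aldh16a1, an aldehyde dehydrogenase family member, at -0.69 with Fuz and -0.75 with Prmt1. Fcgrt, the neonatal Fc receptor, had -0.58 and -0.67, Aspdh -0.55 and -0.55, Zfp473 -0.33 and -0.45, and the Mediator subunit Med25 -0.15 and -0.30. Positive were Bcl2l12, the nearest gene beyond Prmt1, at 0.37 and 0.41, Ptov1 at 0.36 and 0.36, and the chaperone cofactor Pih1d1 at 0.34 and 0.38. The region thus held genes moving with the pair and genes moving against it, interleaved with genes near 0.

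**Figure D5:**
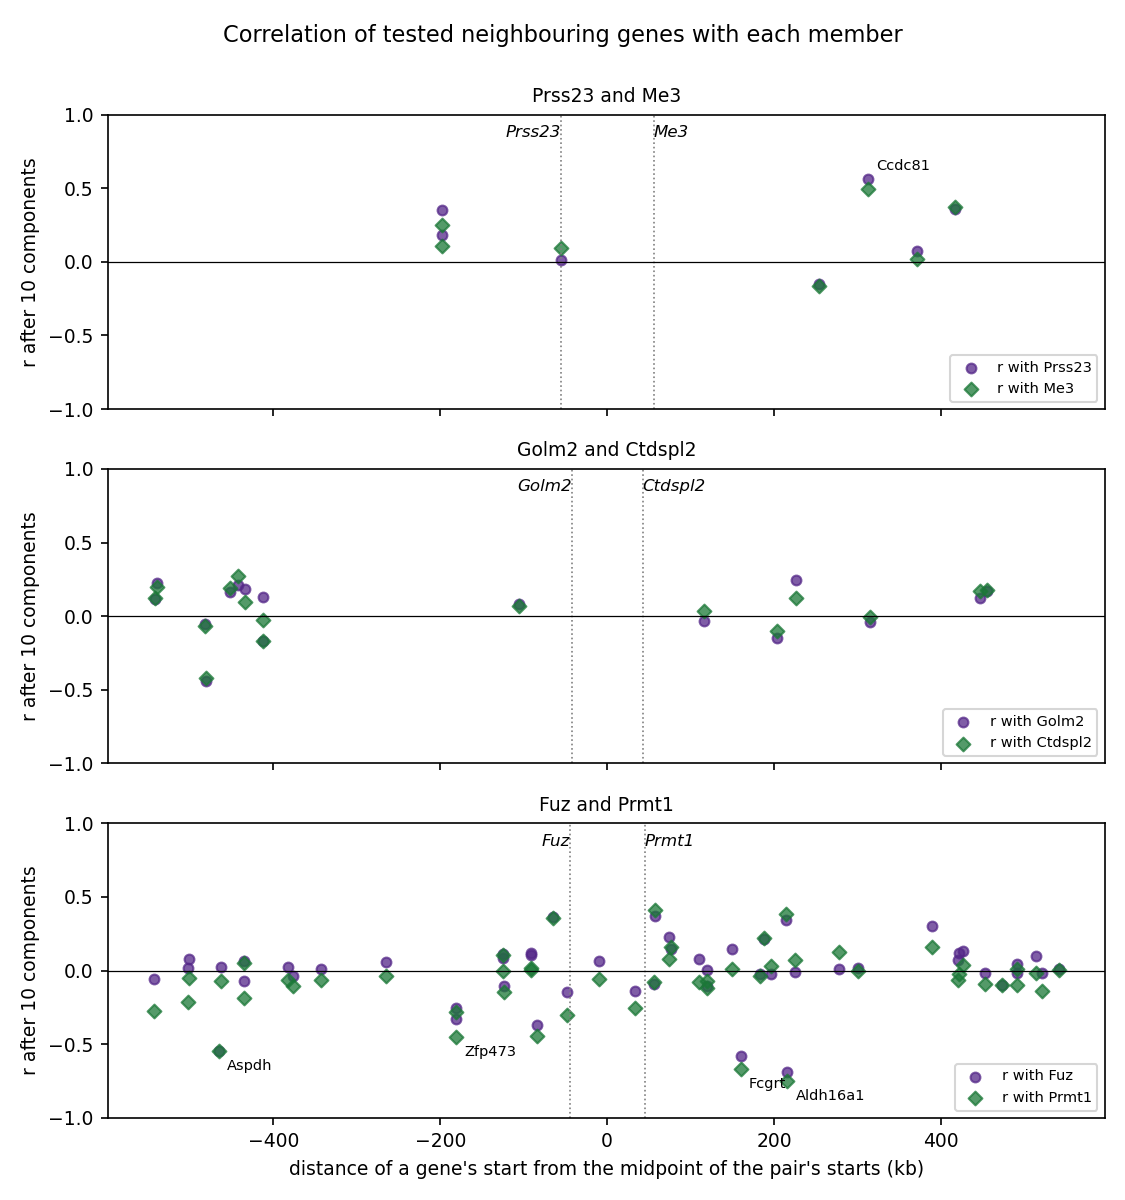
Adjusted r of each tested neighbouring gene with the first (circles) and second (diamonds) gene of a pair, by distance of its start from the midpoint of the pair's starts (kb). No neighbour within 500 kb reaches the values inside the pairs (0.84, 0.80 and 0.81), and the farthest from 0 is Aldh16a1 at -0.75 with Prmt1.

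Farther out, and with the partner left aside, the genes most like each member lay mostly on the same chromosome. After Ccdc81, Prss23 was most like Tmem126b (0.55), an assembly factor of respiratory complex I that starts 1.03 Mb away, and Sytl2 (0.50), a Rab27 effector 0.850 Mb away. Me3 was most like the same 3 genes, with Sytl2 (0.54) and Tmem126b (0.54) ahead of Ccdc81, and with Crebzf, a bZIP protein, at 0.39. Golm2 and Ctdspl2 were most like Ccndbp1, a cyclin D1-binding protein, with opposite sign (-0.63 and -0.68). Also among the 5 most like them were Tubgcp4 of the gamma-tubulin ring complex (0.49 and 0.51) and Bloc1s6, a subunit of BLOC-1 (-0.47 and -0.47). These 3 start 0.687 to 0.989 Mb away, and 1 more for each member was on another chromosome, the mitochondrial protease gene Lonp1 (0.46 with Golm2) and Eapp (0.43 with Ctdspl2). For Fuz and Prmt1 the genes after Prmt1l1 were Aldh16a1, Fcgrt, Aspdh and the synaptic scaffold gene Shank1 (-0.54 and -0.64).

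Genes with an absolute r of at least 0.3 were concentrated near the members. Within 1 Mb they made up 5 of 11 tested genes for Prss23, 5 of 14 for Me3, 4 of 29 for Golm2, 5 of 30 for Ctdspl2, 10 of 74 for Fuz and 12 of 75 for Prmt1, the partner included. On other chromosomes they made up 0.0377% to 0.562% of 13250 or 14059 genes. All tested genes share the same libraries and components, and these values are a description.

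Levels of the members also went with cell type markers to differing degrees. Unadjusted, Prss23 had r = 0.49 with the mean of 10 glutamatergic genes and -0.44 with that of 10 striatal genes, while Me3, its neighbour, had 0.01 and -0.01. In the 112 libraries that did not stand apart Prss23 had -0.05 and 0.19, near 0 or of the other sign. Golm2 had 0.40 with 7 interneuron genes and Ctdspl2 0.37, and with 10 glutamatergic genes they had 0.38 and 0.19. In the 112 libraries the values with interneuron genes were 0.09 and 0.12, and those with glutamatergic genes 0.56 and 0.41. Fuz had -0.53 with 5 mural cell genes and -0.44 with 6 endothelial genes, and Prmt1 -0.41 and -0.29. In the 112 libraries these were -0.27 and -0.34 for Fuz and -0.22 and -0.30 for Prmt1. The part of these cell types in the relations within pairs was not tested.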

How the data were processed

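RNA of prelimbic cortex was measured in 130 libraries of 164 labelled samples, and 34 samples have no column and were not analysed here. Reads were quantified with kallisto 0.48, per the submitters' processing notes. The deposited values are log2 of the estimated count plus 1, unscaled, as checked on the file (0 to 21.9, 36.9% at 0, no identical columns). They were turned back to counts, scaled so that each library summed to 1000000, and put back on the log2 scale after adding 1. Methods for read counts were not used, and the tests were run on the log2 scale. The build is not given in the sources used here, but 99.98% of compared positions lay at gene ends of RefSeq GRCr8.

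The members, lists and tests were chosen with earlier results of these data known. Genes with a mean of at least 1 (15150) were tested with limma 3.58.1 in R 4.3.3 (two-sided moderated t, variance trend on, p adjusted over all genes by Benjamini-Hochberg, limit 0.05). On simulated data with 15150 genes limma found 86.6% of planted differences of 0.25 for the decimal series and 41.8% for the reassigned libraries. Adjusted levels are residuals on 10 principal components. Mixtures of 1, 2 and 3 normal distributions of equal variance were compared by BIC. Low-Gad2 means Gad2 under 4.5. Named genes were the members, genes between them, and tested genes within 500 kb with an absolute adjusted r of at least 0.3. Also named were the 5 tested genes most like each member, its partner aside, and list genes that passed or stood first. Some results that fall under this rule are not reported here. Other tools were numpy 2.4.6, pandas 2.3.3, scipy 1.17.1 and matplotlib 3.10.9 in Python 3.11.15. Depth was 15.1 to 55.95 estimated counts per library in units of 1000000, and the replicate unit is the library, 1 per identifier. Alternatives were other scaling, pseudocount, filters, numbers of components and subsets of libraries.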

Additional observations from a re-analysis of the deposited data

How the results depend on the processing

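Leaving out the striatal-like libraries took the decimal calls to 1328, and it ended those of Golm2 and Ctdspl2. Leaving out the low-Gad2 libraries, an alternative chosen after seeing the data, took them to 7071, and Prmt1 was then called. Under the other alternatives they numbered 3149 to 5301, against 4183. The call of Ctdspl2 was also lost with no filter on level (limma adjusted p = 0.0576), when 2 genes were called for the reassigned libraries. Under median-of-ratios scaling, with factors from 0.527 to 2.14, the median level of a library moved by -0.09 to 0.85, and no member changed direction or call.

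With no components r was 0.56 for Prss23 with Me3, 0.85 for Golm2 with Ctdspl2 and 0.72 for Fuz with Prmt1. With 5 components it was 0.74 for the first pair and 0.78 for the third. With components refitted, Prss23 with Me3 had 0.89 without the striatal-like libraries (0.887) and 0.89 without all 18 (0.886), where Fuz with Prmt1 had 0.85 (0.846). Fuz with the summed counts of Prmt1 and Prmt1l1, an alternative chosen after seeing the data like the omission of decimal replicate 15, had 0.66. No called difference changed sign. Of uncalled ones, Prss23 in the decimal series was at 0.04 without all 18 libraries, Fuz at 0.01 without the striatal-like, 0.04 without the low-Gad2 and 0.05 without all 18, and Prss23 in the reassigned libraries at 0.0033 without the low-Gad2, each below 0 with all libraries. The number of libraries in a mixture component moved most: for Prss23 from 3 to 66 without the striatal-like libraries and to 83 after 10 components. The cause was not tested. No paired analysis was possible because the labels give no replicate numbers shared between the series. Depth limits no member, whose lowest count was 142, but 11 reassigned libraries limit that comparison.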
